A study of Mus musculus with 2 samples.

Results

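Transcripts of macrophages and other leukocytes were examined in neural crest cells sorted from the embryonic mouse heart with and without Adam19, which encodes a membrane-anchored metalloprotease. The set held 36 genes chosen by name, with earlier results of these data known. All were measured, among 19938 genes in all. They fell into 17 genes typical of tissue macrophages, 10 genes shared by macrophages and other myeloid cells, and 9 genes of leukocytes in general.

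Both samples came from C57BL/6 embryos at stage E14.5. One was Adam19+/+; Wnt1-Cre; R26tdTomato/+ and the other was Adam19-/-; Wnt1-Cre; R26tdTomato/+, so both carried the Cre driver and 1 copy of the reporter. Wnt1-Cre switches on the red reporter in the neural crest lineage, hearts were digested with collagenase, and the fluorescent cells were collected by flow sorting before RNA was hybridised to Affymetrix Mouse Gene 1.0 ST arrays. There was 1 array per genotype (n = 1), so each difference is one between 2 samples and carries no replicate error, and the number of arrays limits the precision; the sources used here do not give the number of embryos behind a sample. Values are log2 signals, and differences are the log2 signal of Adam19-/- minus that of Adam19+/+.

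Macrophages and other leukocytes descend from haematopoietic progenitors and not from the neural crest, so a gate on the Wnt1-Cre reporter is not meant to collect them. The embryonic heart is seeded early by macrophages from the yolk sac and later by cells from the fetal liver. These cells depend on the receptor Csf1r and on the transcription factor PU.1, encoded by Spi1, which binds purine-rich sites in the promoters of many myeloid genes. They engulf dying cells and digest what they take up in lysosomes. They read antibody and complement through receptors, some of which signal through the adaptors Fcer1g and Tyrobp.

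The promoter sequences below, upstream of 5 genes that were among the more strongly differing members and held GAGGAA or AGGAAGT, and of Fcer1g, which held neither of these strings in this stretch, show letters that many members share. Each is the 120 bases before the RefSeq start in GRCm38.p6, written 5′ to 3′ on the strand of the gene. Capitals mark the letters GAGGAA or AGGAAGT, which belong to the core recognised by PU.1 and related ETS factors, or the same motif on the opposite strand, where they read TTCCTC or ACTTCCT. C1qb lies at chr4:136886201-136886320 on the minus strand, Laptm5 at chr4:130913196-130913315 on the plus strand, Fcgr1 at chr3:96293970-96294089 on the minus strand, Lyz2 at chr10:117282273-117282392 on the minus strand, Cd53 at chr3:106790150-106790269 on the minus strand and Fcer1g at chr1:171234350-171234469 on the minus strand.
C1qb: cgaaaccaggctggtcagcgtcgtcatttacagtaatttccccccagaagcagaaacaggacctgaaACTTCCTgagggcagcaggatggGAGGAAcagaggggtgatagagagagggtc
Laptm5: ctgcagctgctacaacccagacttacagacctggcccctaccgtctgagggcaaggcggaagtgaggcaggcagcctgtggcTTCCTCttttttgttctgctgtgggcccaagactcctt
Fcgr1: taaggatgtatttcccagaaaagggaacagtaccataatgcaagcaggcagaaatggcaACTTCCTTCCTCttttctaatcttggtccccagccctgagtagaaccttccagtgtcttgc
Lyz2: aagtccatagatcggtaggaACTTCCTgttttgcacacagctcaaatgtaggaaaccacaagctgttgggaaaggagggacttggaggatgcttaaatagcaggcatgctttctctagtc
Cd53: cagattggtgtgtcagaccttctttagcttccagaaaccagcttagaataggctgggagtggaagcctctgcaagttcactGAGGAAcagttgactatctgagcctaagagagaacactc
Fcer1g: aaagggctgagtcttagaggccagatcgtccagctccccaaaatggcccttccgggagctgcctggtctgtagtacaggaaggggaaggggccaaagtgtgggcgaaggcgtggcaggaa

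In C1qb the motif nearest the start began 30 bases upstream of it, in Laptm5 it began 38 bases upstream and in Cd53 39 bases upstream. In Fcgr1 both motifs overlapped, beginning 61 and 55 bases upstream, and in Lyz2 the match began 100 bases upstream. These matches describe letters and are not evidence of binding.

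The sorted cells expressed genes of neural crest derivatives, and most of the leukocyte genes gave signals under the middle of all genes. Acta2, the smooth muscle actin, had signals of 13.74 in Adam19+/+ cells and 13.62 in Adam19-/- cells, and Sox10, a factor of crest-derived glia and melanocytes, was at 10.45 and 10.50. By contrast 31 of the 36 leukocyte genes had a mean signal under that of the median gene, 8.01, and Laptm5, C1qb, Cd68, Fcer1g and Lgmn lay above it. Brightness also depends on the probes, so the order of levels between genes is that of array signals and not of transcript numbers, and no gene can be called absent, since the lowest value in the deposited table is 4.09. Adam19 was at 11.62 and 9.77, a difference of -1.85. Transcripts of the Y chromosome differed as well, by -1.62 for Eif2s3y, -1.42 for Uty and -1.17 for Kdm5d, and Xist by -0.11, and the part of this in the results was not tested. No member lies within 20 Mb of Adam19 in the RefSeq gene table, although Cd68 and Plek share chromosome 11 with it.

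Nearly all of the 36 macrophage and leukocyte genes had a higher signal in the Adam19-/- sample, most of them by a small amount. Of the 36, 33 were higher, 2 were lower and 1 was equal, with a median difference of 0.20 or 1.15-fold. Over all 19938 genes, 51.7% were higher and 14.2% exactly equal, with a median difference of 0.01. Most members lie among the 9969 genes below the median signal. Of those 9969 genes, 3812 or 38.2% were higher, 3438 were lower and 2719 or 27.3% were exactly equal, with a median of 0.00. The many equal values hold down the share that was higher. Those genes were also dimmer in median signal than the members, so the shares are not compared at like signal. The genes were chosen with earlier results of these data known, so these shares describe the set and do not test it. In a bulk sample more cells of a type cannot be told apart from more RNA per cell.

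**Figure D1:**
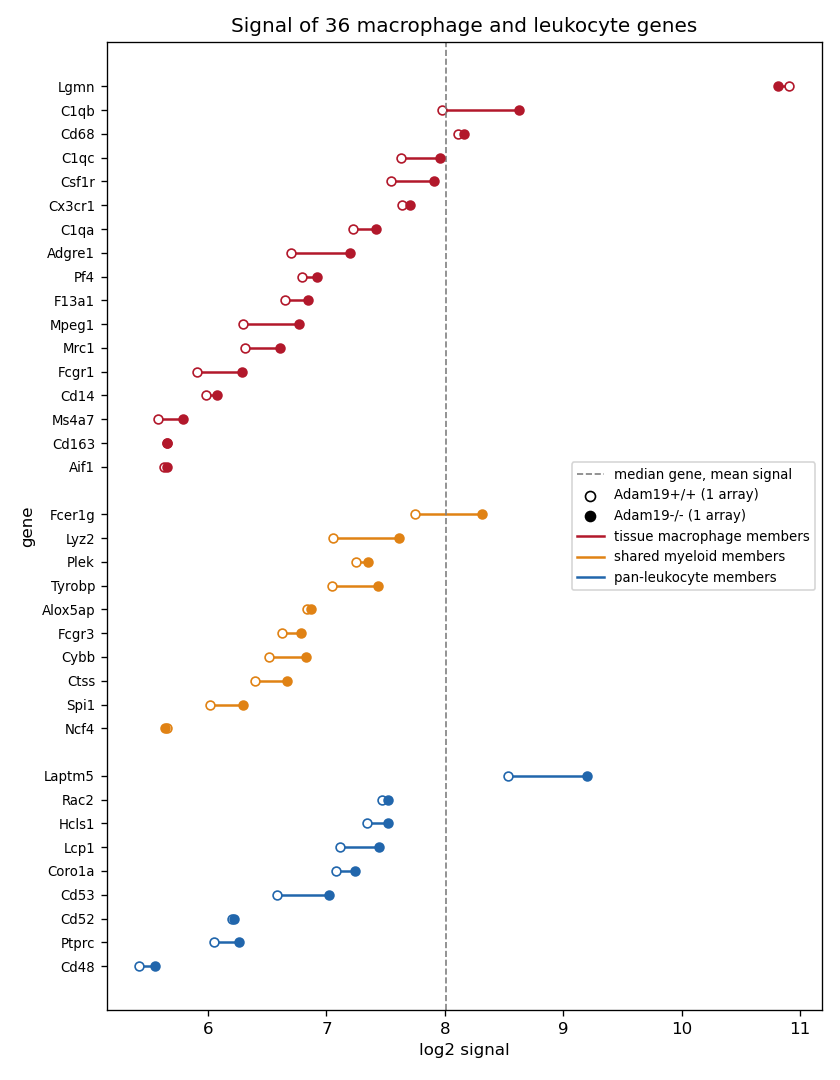
Log2 signal (horizontal axis) of each of the 36 genes (vertical axis) on the Adam19+/+ array (open circles) and the Adam19-/- array (filled circles), 1 array each, joined by a line and coloured by class; the dashed line is the mean signal of the median gene, 8.01. Filled circles lie to the right of open ones for 33 genes, and Lgmn, at the top, is the bright member with the opposite order.

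A gene was called higher when its difference reached 1.5-fold, a threshold of size and not a test. The members called were Laptm5 and C1qb, 2 of 36, against 0.155% of all genes and 0.211% of genes below the median signal. At 1.2-fold, 16 of 36 or 44.4% were higher, against 5.07% of all genes and 6.37% of genes below the median signal. No member was lower by 1.2-fold, which 2.02% of all genes and 2.99% of the dimmer genes were. Neither a member nor any other gene reached 2-fold higher (0%). Of the 200 largest increases among all genes, 7 were members, and of the 50 largest, 4 were, where members make up 36 of all 19938 genes. These counts describe members chosen with earlier results of these data known.

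Within the arrays, the agreement between transcript clusters of one gene gives a partial measure of technical scatter. Error that an array shares across clusters cancels in it, so scatter from array to array was not measured. Over 275 genes with at least 2 clusters below the median signal, the differences given by the 2 brightest of them lay a median of 0.08 apart, with a 95th percentile of 0.34. The differences of 10 of the 36 members exceeded that percentile, against 2.19% of all genes and 3.03% of genes below the median signal. They were Laptm5, C1qb, Fcer1g, Lyz2, Adgre1, Mpeg1, Cd53, Tyrobp, Fcgr1 and Csf1r. Each member was measured by 1 cluster, so no member could be checked against a second one. The percentile is that of a gap between 2 differences, set here beside single differences, and it holds no variation between embryos.

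**Figure D2:**
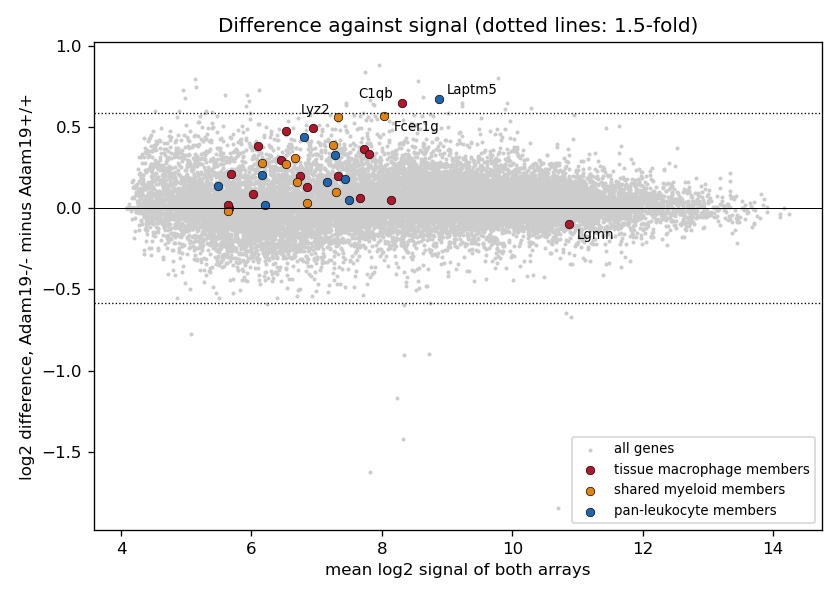
Log2 difference, Adam19-/- minus Adam19+/+ (vertical axis), against the mean log2 signal of both arrays (horizontal axis) for all 19938 genes (grey) and the 36 members (coloured by class), with dotted lines at 1.5-fold. Laptm5 at 0.68 and C1qb at 0.65 lie above the upper line, and most members lie between 0 and that line at signals under 8.01.

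Among receptors that define macrophages, the larger differences were those of Adgre1 and Fcgr1. Adgre1, which encodes the F4/80 antigen, had signals of 6.70 in Adam19+/+ cells and 7.20 in Adam19-/- cells and so differed by 0.49, or 1.41-fold. Fcgr1, the high-affinity receptor for immunoglobulin G, was at 5.91 and 6.29, a difference of 0.38. Csf1r, the receptor for the growth factors CSF1 and IL-34, was at 7.54 and 7.91, a difference of 0.36 or 1.29-fold. These 3 receptors were higher by more than the 95th percentile of the gap between clusters given above.

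Scavenger, chemokine and endotoxin receptors differed less. Mrc1, the mannose receptor of resident macrophages, was at 6.31 and 6.61, a difference of 0.29. Cx3cr1, the receptor for fractalkine, was at 7.64 and 7.70, a difference of 0.06. Cd14, the co-receptor for bacterial lipopolysaccharide, was at 5.99 and 6.07. The haemoglobin scavenger receptor Cd163 had the same value, 5.66, on both arrays. Fcgr3, a low-affinity receptor for immunoglobulin G that is also found on natural killer cells and neutrophils, was at 6.62 and 6.78, a difference of 0.16. Among the members, receptors usual on macrophages thus ranged from 0.00 to 0.49.

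The 3 chains of C1q, which opens the classical complement pathway and is made mainly by macrophages, were all higher. C1qb was at 7.98 and 8.63, 1.57-fold higher by a difference of 0.65, which ranked 16th among increases. C1qc was at 7.63 and 7.96, a difference of 0.33, and C1qa at 7.22 and 7.42, a difference of 0.20. The order of the differences was that of the signals. The 3 genes are neighbours on chromosome 4 with no other coding gene between them in the RefSeq table.

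The adaptors that pair with activating receptors were higher as well. Fcer1g, the common gamma chain of Fc receptors, was at 7.75 and 8.32, a difference of 0.56 or 1.48-fold, and lay above the median gene on the Adam19-/- array alone. Tyrobp, the adaptor DAP12, was at 7.05 and 7.44, a difference of 0.39. Spi1, which encodes PU.1, was at 6.02 and 6.30, a difference of 0.28 or 1.21-fold. Both adaptors exceeded that percentile of the gap between clusters, and Spi1 did not.

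Genes of killing and digestion split into those that were higher and those near 0. Lyz2, the lysozyme of myeloid cells, was at 7.05 and 7.61, a difference of 0.56 or 1.47-fold, and Mpeg1, the pore-forming perforin-2 of phagocytes, was at 6.30 and 6.77, a difference of 0.47. Cybb, the catalytic subunit of the phagocyte NADPH oxidase, was at 6.52 and 6.83, a difference of 0.31, whereas Ncf4, a cytosolic subunit of the same enzyme, was at 5.65 and 5.64. The lysosomal protease gene Ctss was at 6.39 and 6.67, a difference of 0.27.

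The exception among digestive genes was Lgmn, the lysosomal asparaginyl endopeptidase, which many cell types express. It was at 10.91 and 10.81, a difference of -0.10. It was also the brightest member, at percentile 89.7 of all genes, whereas the other 35 lay between percentiles 17.1 and 61.5. Cd68, a lysosomal membrane protein abundant in macrophages, was at 8.11 and 8.16, a difference of 0.05. With Lgmn left out the linear signals of the members summed to 4404 in Adam19+/+ and 5473 in Adam19-/- cells, 1.24-fold higher, and with it to 6332 and 7273, or 1.15-fold.

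The remaining myeloid members differed by at most 0.21. They were Ms4a7, a membrane protein of resident macrophages, at 5.58 and 5.79, and F13a1, the A subunit of coagulation factor XIII, at 6.65 and 6.84. The chemokine gene Pf4, expressed in megakaryocytes and some macrophages, was at 6.79 and 6.92, and Plek, which encodes the kinase substrate pleckstrin of platelets and leukocytes, at 7.25 and 7.35. Alox5ap, needed for leukotriene synthesis, was at 6.84 and 6.87, and Aif1, the calcium-binding protein IBA1, at 5.63 and 5.65. None of these exceeded that percentile.

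Among the genes of leukocytes in general, Laptm5 stood above the others. Laptm5, a lysosomal membrane protein of haematopoietic cells, was at 8.53 and 9.21, 1.60-fold higher by a difference of 0.68, which ranked 13th among increases. Cd53, a tetraspanin of leukocytes, was at 6.58 and 7.02, a difference of 0.44, and Lcp1, the actin-bundling protein L-plastin, was at 7.12 and 7.44, a difference of 0.33. Ptprc, which encodes the leukocyte antigen CD45, was at 6.05 and 6.26, a difference of 0.21.

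The other 5 genes of this class differed by less than Ptprc. Hcls1, an actin regulator of haematopoietic cells, was at 7.34 and 7.52, a difference of 0.18, and Coro1a, the actin-binding coronin of leukocytes, at 7.08 and 7.24, a difference of 0.16. The adhesion receptor gene Cd48 was at 5.42 and 5.55, the GTPase gene Rac2 at 7.47 and 7.52, and the surface glycoprotein gene Cd52 at 6.20 and 6.22. All 9 genes were higher in the Adam19-/- sample, 3 of them by 1.2-fold, against 51.7% and 5.07% of all genes.

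Tissue macrophage and pan-leukocyte genes had medians close to each other in level and in difference. The median percentile of mean signal was 37.6 for the 17 macrophage genes, 36.6 for the 10 shared myeloid genes and 40.8 for the 9 pan-leukocyte genes. Their median differences were 0.20, 0.28 and 0.18. At 1.2-fold, 7 of 17, 6 of 10 and 3 of 9 were higher, against 5.07% of all genes and 6.37% of genes below the median signal. The ranges overlapped, from -0.10 to 0.65 for macrophage genes, from -0.01 to 0.56 for shared myeloid genes and from 0.02 to 0.68 for pan-leukocyte genes. The median of the macrophage genes minus that of the pan-leukocyte genes was 0.02, and it was -0.01 when the shared myeloid genes were counted as pan-leukocyte, so the order of these classes depends on the assignment.

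**Figure D3:**
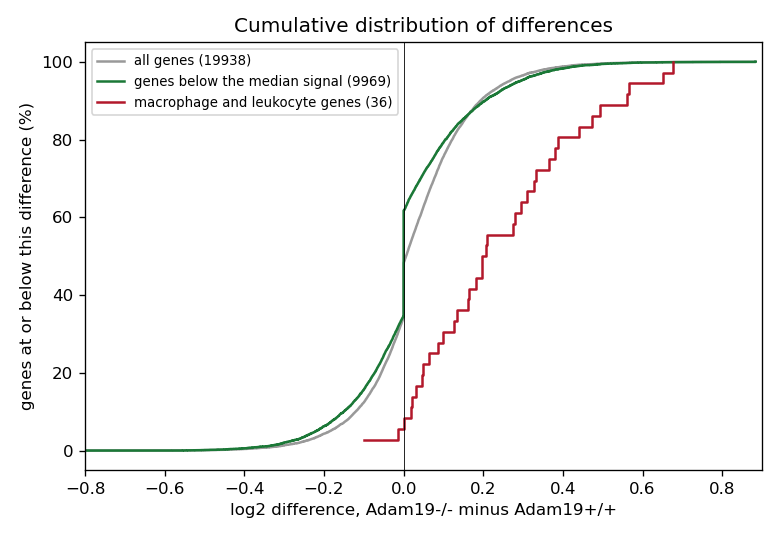
Share of genes (vertical axis, percent) at or below a given log2 difference, Adam19-/- minus Adam19+/+ (horizontal axis), for all 19938 genes, the 9969 genes below the median signal and the 36 members. The members' curve lies to the right of both others through most of its range, with its median at 0.20, and the vertical step of the other curves at 0 is the genes with exactly equal values, 14.2% of all genes and 27.3% of the dimmer ones.

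Across the 36 members, Spearman's rho between the mean signal and the difference was 0.29, and 0.40 over the 35 without Lgmn, against 0.11 over all genes. These are descriptions across genes that share both arrays. Exactly equal values were rarer among the members, 1 of 36 or 2.78%, than among genes below the median signal.

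Promoters were compared through the 300-base RefSeq windows, 250 before and 50 after each start, which were found for 26 of the 36 members and for 15614 measured genes. AGGAAGT, on either strand, occurred in a window of 11 of the 26 members or 42.3%, against 10.0% of measured genes. GAGGAA occurred in 61.5% against 30.2%, the shorter GGAAGT in 61.5% against 27.9%, the joined form GAGGAAGT in 19.2% against 3.24%, and AAAGAGGAA in 15.4% against 1.40%. These 5 motifs overlap one another in letters and are not separate observations. The AP-1 motif TGACTCA was found in 7.69% against 5.41%, the E-box CACGTG in 3.85% against 9.50%, and TATAAA in 19.2% against 13.6%. The CACGTG match was that of Lgmn.

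The windows also differed in base composition. The median GC content was 46.2% for the members and 57.5% for measured genes, and the median number of CpG dinucleotides was 4 against 15. The 11 members with AGGAAGT had a median difference of 0.29 and the 15 without it one of 0.16. The same medians were 0.28 and 0.13 for GGAAGT, 0.24 and 0.17 for GAGGAA, 0.27 and 0.21 for GAGGAAGT, and 0.27 and 0.21 for AAAGAGGAA. The ranges of members with and without each of these motifs overlapped. For the other motifs searched they were 0.11 and 0.24 for TGACTCA, -0.10 and 0.21 for CACGTG, which Lgmn alone held, and 0.21 and 0.21 for TATAAA. All motifs were chosen after the values were seen, and a link between motif and difference was not tested. The members with AGGAAGT were Mrc1, Fcgr1, C1qb, C1qc, F13a1, Pf4, Lyz2, Ctss, Ptprc, Cd53 and Hcls1, whose differences ran from 0.13 to 0.65.

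Other genes of macrophages did not all share the direction. Of 19 further macrophage genes measured, 13 were higher, 4 were lower and 2 had equal values. The median was 0.02, and 6, or 31.6%, were higher by 1.2-fold, against 5.07% of all genes. The larger differences were those of Ms4a6d at 0.48, Ms4a6c at 0.46 and Ms4a6b at 0.32, relatives of Ms4a7, and of the scavenger receptor gene Stab1 at 0.36. Cbr2, a carbonyl reductase, was bright and lower, at 10.91 and 10.64. Itgam, the CD11b integrin chain, and Vsig4 had equal values on both arrays.

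The growth factor genes that sustain macrophages had nearly the same signal on both arrays. Csf1 was at 8.79 on both arrays, Il34 differed by -0.01 and Csf2rb, the shared beta chain, by 0.10. Of the 7 genes of CSF ligands and receptors, 2 were higher, 2 were lower and 3 had equal values, and the median was 0.00.

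Complement genes beyond C1q differed in both directions. The anaphylatoxin receptor genes C3ar1 and C5ar1, expressed on myeloid cells, were at 7.61 and 8.17 and at 5.83 and 6.36, differences of 0.57 and 0.52. The properdin gene Cfp differed by -0.37, the complement regulator Cd55 by -0.33 and the protease gene C1s1 by -0.33, while Cd59a, another regulator, was higher by 0.17. Of 9 measured, 3 were higher, 5 were lower and 1 had equal values, and the median was -0.02.

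Genes of Fc receptor signalling were mostly near 0, with 5 of 10 higher, 1 lower and 4 equal and a median of 0.03. Btk, a kinase of B cells and myeloid cells, differed by 0.52 and Fcgr4, an activating receptor for immunoglobulin G, by 0.35, whereas the kinase gene Fgr differed by -0.30 and Syk by 0.11. Of the remaining oxidase genes Cyba differed by 0.20 and Rac1 by 0.12, and Ncf1 was equal, giving a median of 0.12 over 3. Of 7 genes of antigen presentation by MHC class II, 6 were higher, with a median of 0.17, led by H2-DMa at 0.49, with H2-Aa and the invariant chain Cd74 each at 0.21.

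Lysosomal genes that most cells express differed little. Of 11, 8 were higher and 3 were lower; the median was 0.02 and none passed 1.2-fold. Ctsb was at 0.10, Hexa at 0.09 and Cd63 at -0.16. The values of Lgmn and Cd68 lie within the range of this list, from -0.16 to 0.10.

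Chemokine genes differed in both directions, with 3 of 10 higher, 6 lower and 1 equal and a median of -0.09. Ccl2, which draws monocytes, was at 8.78 and 8.33, a difference of -0.45, and its relative Ccl7 differed by -0.28 and Ccl9 by -0.34. Ccl3 was at 8.66 and 9.15, a difference of 0.49. Fibroblasts and other stromal cells also make Ccl2 and Ccl7.

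**Figure D4:**
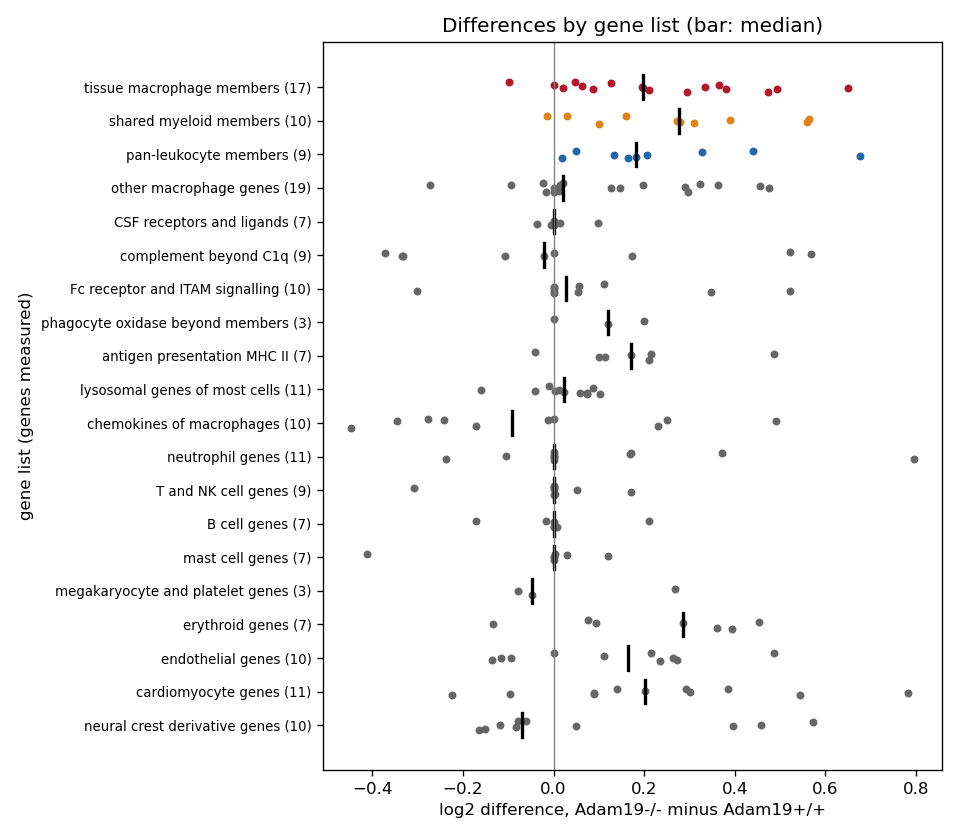
Log2 difference, Adam19-/- minus Adam19+/+ (horizontal axis), of each measured gene in the 3 member classes and 17 other lists (vertical axis, with the number of genes), with a black bar at each median. The medians of the member classes lie between 0.18 and 0.28. Those of the neutrophil, T and NK, B and mast cell lists, which are dimmer than the members, lie at 0.00. Those of the erythroid, cardiomyocyte and endothelial lists lie at 0.29, 0.20 and 0.16.

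Genes of other leukocyte types were dim and often exactly equal. Of 9 T and NK cell genes, 3 were higher, 1 lower and 5 equal, among them the coreceptor genes Cd4 and Cd8a, and the largest difference was that of Prf1 at -0.31. Of 7 B cell genes, 2 were higher, 2 lower and 3 equal, with Vpreb1 at 0.21 and Pax5 at -0.17. Of 7 mast cell genes, 3 were higher, 1 lower and 3 equal, with Cpa3 at -0.41 and Mcpt4 at 0.12. Of 11 neutrophil genes, 4 were higher, 2 lower and 5 equal, including Mpo and Elane, but the granule gene Ngp was at 4.74 and 5.54, a difference of 0.80, and Retnlg differed by 0.37. The median of each of these 4 lists was 0.00, as it was for all genes below the median signal, 27.3% of which had equal values. Median percentiles of signal ran from 14.8 to 23.4 in these lists, against 37.6 for the members. The lists and the members are therefore not compared at like signal. Of 3 platelet genes measured, Ppbp differed by 0.27, Itga2b by -0.08 and Gp9 by -0.05.

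Most erythroid and cardiomyocyte genes, of cells that a crest reporter should mark rarely, were also higher in the Adam19-/- sample, and their part in the leukocyte differences was not tested. Among genes at or above the median signal, 65.1% were higher and 1.08% exactly equal, with a median difference of 0.04. Below it, 38.2% were higher and 27.3% exactly equal, with a median of 0.00. The erythroid, cardiomyocyte and endothelial lists each hold genes on both sides of the median signal. Of 7 erythroid genes 6 were higher, with a median of 0.29, and their linear signals summed to 2669 and 3215. The embryonic globin genes Hbb-bh1, Hba-x and Hbb-y differed by 0.45, 0.36 and 0.29, and Epor, the erythropoietin receptor, by 0.39. Of 11 cardiomyocyte genes 9 were higher, with a median of 0.20 and sums of 10016 and 10910, led by Myl7 at 0.78, Pln at 0.54 and Myh6 at 0.39. Of 10 endothelial genes 6 were higher, 3 were lower and 1 had equal values, with a median of 0.16 and sums of 5114 and 5232. The share higher, 60%, is near that of the brighter genes. Their median was lower, however, at 0.04, and only 3.76% of them passed 1.2-fold. The larger values were those of Nfatc1 at 0.49, Pecam1 at 0.27 and Cdh5 at 0.26. At 1.2-fold, 4 of 7 erythroid genes (57.1%), 5 of 11 cardiomyocyte genes (45.5%) and 3 of 10 endothelial genes (30%) were higher. That share was 44.4% for the members and 5.07% for all genes, so it was not particular to the members.

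Genes of neural crest derivatives had a median of -0.07, with 4 of 10 higher and 6 lower, and their linear signals summed to 41460 and 40167. Those that were higher included Sox9 at 0.57, the tyrosine hydroxylase gene Th at 0.46 and Twist1 at 0.40, and Dct, a melanocyte enzyme, differed by -0.16. The ratio of summed signals, Adam19-/- over Adam19+/+, was 1.15 for all 36 leukocyte genes, against 1.204 for the erythroid, 1.09 for the cardiomyocyte, 1.02 for the endothelial and 0.969 for the crest list. Without Lgmn the leukocyte ratio was 1.24, so its order against the erythroid ratio turns on that gene. The other sums also lean on their brightest genes. These were Hbb-y at 10.71 and 11.00, Actc1 at 11.70 and 11.79, Npr3 at 11.28 and 11.16, and Acta2 at 13.74 and 13.62. Ratios of those lists without these genes were not computed.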

How the data were processed

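The deposited table held log2 signals of 28853 transcript clusters with 1 column per array. The authors' background correction, normalisation and probe summary are unstated in the sources used here, and the log base, which the table does not name, was taken as log2 from the range of the values. Gene names came from the array platform's annotation (2016), updated to RefSeq symbols. Those with 1 symbol (21789) were kept, and the brightest stood for each gene, with no floor. Values were not normalised again. With 1 array per genotype no test was run. Genes were counted at 1.5-fold, with 1.2-fold and 2-fold beside it, against all genes and genes below the median signal.

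The members, their classes and the other lists were chosen with earlier results of these data known. All members were named, along with Adam19 and, of each other list, genes among the 4 largest differences and, for other cell types, the one with the highest signal. Cbr2, Itgam, Vsig4, Csf1, C1s1, Cd59a, Cd4, Cd8a, Mpo, Elane, Sox10 and the Y-linked genes were named after their values were seen, and so were the motifs and the promoters. Some list genes are not analysed here. Promoter sequences are RefSeq's (GRCm38.p6). The steps were tested on simulated data. Python 3.11.15, numpy 2.4.6, pandas 2.3.3, scipy 1.17.1, statsmodels 0.14.6 and matplotlib 3.10.9 were used.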

Additional observations from a re-analysis of the deposited data

How the results depend on the processing

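Quantile normalisation, centring on the array median, centring on a lowess curve, averaging the clusters of a gene, using clusters with several symbols and adding 32 to the linear signal each left Laptm5 and C1qb as the 2 members past 1.5-fold. The median of the 36 genes ran from 0.15 with 32 added to 0.22 after quantile normalisation. The number higher ran from 31 after median centring to 35, and the number past 1.2-fold from 11 with 32 added to 16. Over the same settings, the share of all genes past 1.2-fold ran from 2.63% with 32 added to 5.07%. The share past 1.5-fold ran from 0.0602% with 32 added to 0.16%. Averaging clusters and using several symbols could not alter a member, since each has 1 cluster. Keeping genes above the median signal on at least 1 array left 5 members, of which C1qb and Fcer1g passed through the Adam19-/- array alone, where they are high, so the values of these 5 support nothing. Among them 4 were higher, 3 past 1.2-fold and 2 past 1.5-fold, with a median of 0.56, which is the value of Fcer1g, and with 0.047 for the macrophage genes Cd68, C1qb and Lgmn, 0.56 for Fcer1g and 0.68 for Laptm5, and the macrophage minus pan-leukocyte median was then -0.63. Of all 10122 genes kept this way, 4.06% passed 1.2-fold and 0.148% passed 1.5-fold. Requiring both arrays, chosen after seeing the data, left Laptm5, Cd68 and Lgmn. Of these, 2 were higher and 1 passed 1.2-fold and 1.5-fold, against 3.57% and 0.0916% of the 9830 genes kept. The median of these 3 members was 0.047, with -0.026 for the macrophage genes and 0.68 for Laptm5, a gap of -0.70. Without these changes, the count past the fold was 16 at 1.2-fold and 0 at 2-fold, against 5.07% and 0% of all genes. Of 224 member values over 8 alternatives, 2 moved by more than the spread between clusters of a gene, both with 32 added, namely Fcgr1 to 0.26 and Mpeg1 to 0.35. Many of the 224 could not move, since averaging clusters, using several symbols and the signal filters leave a kept member's value unchanged. No paired analysis was possible because each genotype has 1 array.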

Other observations

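Some genes of myeloid cells outside the lists were among the larger increases, and were picked from the ranking after their values were seen. Rgs1, a regulator of G-protein signalling in leukocytes, had signals of 5.60 in Adam19+/+ cells and 6.23 in Adam19-/- cells and differed by 0.63. Fcrls, an Fc receptor-like gene of macrophages and microglia, was at 6.62 and 7.19, a difference of 0.57, and Ly86, which encodes the secreted partner MD-1 of a Toll-like receptor relative, at 7.51 and 8.07, a difference of 0.56. Lilrb4a, an inhibitory receptor of myeloid cells, differed by 0.44. Such a choice from the top of a ranking describes these 4 genes and says nothing of myeloid genes at large.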
